A study of Mus musculus with 9 samples.

Results

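Toll-like receptors (TLRs) are the membrane receptors with which macrophages sense microbial lipids, proteins and nucleic acids. The 10 mouse genes examined here (Tlr1, Tlr2, Tlr3, Tlr4, Tlr5, Tlr6, Tlr7, Tlr8, Tlr9 and Tlr13) were taken by symbol from a table of 24411 genes, and all 10 were found in it. The table came from bulk RNA-seq of stably proliferating macrophage lines, 3 from yolk sac (YS lines, E9.5), 3 from fetal liver (FL lines, E14.5) and 3 from adult bone marrow (BM lines). All 9 lines were expanded from C57BL/6 mice with M-CSF, the growth factor of macrophages, and none carried a genetic modification. Each line was a bulk culture from its own dish or well after long-term passage, the starting cells were pooled from several mice, and the lines were sequenced with no microbial stimulus given. Lines of one origin may share donor animals, so the p-values below measure only the spread between these cultures. Levels are in TPM, a unit of transcript abundance that allows for gene length and has the same sum in each library; TPM do not keep the sequencing depth, which is unknown here.

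TLRs work as dimers. TLR2 pairs with TLR1 or TLR6 to bind bacterial lipopeptides, TLR4 binds lipopolysaccharide with its partner MD-2, and TLR5 binds flagellin, all at the cell surface. TLR3, TLR7, TLR8, TLR9 and TLR13 sit in endosomes and bind double-stranded RNA, single-stranded RNA, CpG DNA and, for TLR13, bacterial ribosomal RNA. The chaperone UNC93B1 carries the endosomal receptors there, and the adaptors MyD88 and TRIF pass the signal on to NF-κB, AP-1 and interferon regulatory factors.

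The lines had the markers of macrophages: Csf1r, the M-CSF receptor, lay between 1085.83 and 2441.25 TPM and Spi1, which encodes the transcription factor PU.1, between 364.14 and 456.06 TPM. All 8 macrophage markers reached 1 TPM in some line, but not all were alike between origins. Fcgr1, the high-affinity Fc receptor for IgG, was at 122.16, 329.94 and 286.37 TPM in the YS lines, 165.62, 110.13 and 171.94 TPM in FL lines and 5.47, 42.10 and 1.68 TPM in BM lines, with BM line 2 above the other BM lines. Lyz2 ranged from 1163.15 to 3531.31 TPM in the YS lines, 5806.07 to 21976.14 TPM in FL lines and 5986.16 to 7841.48 TPM in BM lines, and Mertk was highest in FL lines (48.14 to 90.52 TPM, at most 21.93 TPM elsewhere). None of the markers of B cells, T cells, mast cells, fibroblasts or epithelial cells reached 1 TPM in any line. Of the 5 dendritic cell markers, Flt3 was listed at 0 throughout and 2 (Zbtb46 and Itgax) reached 1 TPM, with summed levels of 10.35 to 21.66 TPM among YS lines, 5.88 to 7.51 in FL lines and 7.74 to 12.53 in BM lines. The endothelial list reached 56.04 TPM among YS lines and 51.78 TPM in FL lines against at most 1.7 TPM in BM lines, with Kdr at up to 54.35 TPM. Of the 5 granulocyte markers, Ly6g was not matched by that symbol, S100a9 was listed at 0 throughout and S100a8 alone reached 1 TPM (at most 25.11 TPM, in an FL line). Afp was the only hepatocyte marker to reach 1 TPM (at most 20.45 TPM, in an FL line). BM line 2 stood apart in its hemoglobin genes, whose sum was 477.74 TPM there and at most 14.5 TPM in any other line. The part of these markers in the TLR results was not tested beyond leaving out each line in turn.

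Differences were tested with limma on log2(TPM + 1) over the 11753 genes that reached 1 TPM in at least 3 lines, and a gene is called where its Benjamini-Hochberg adjusted p was under 0.1 and the change more than 2-fold. Of the 10 TLR genes, 9 passed this filter, and Tlr5 did not. YS against BM lines gave 4 calls among these 9, all higher in YS lines, where 12.8% of all genes tested were called. FL against BM lines gave 4 calls, 3 higher and 1 lower in FL lines, where 10.3% of all genes were called. YS against FL lines gave 1 call, higher in YS lines, where 3.79% of all genes were called. The 9 genes had median log2 fold changes of 0.50, 0.48 and 0.52 in these comparisons, beside 0.11, 0.09 and 0.02 over all genes tested. The origins did not overlap in any line for 4, 6 and 4 of the 9 genes, against 49.0%, 49.5% and 26.1% of all genes tested. The comparisons share their groups, so the calls against BM lines are not independent of each other. The standard errors (SE) below come from the spread of all 9 lines, including lines of the origin not compared.

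**Figure D1:**
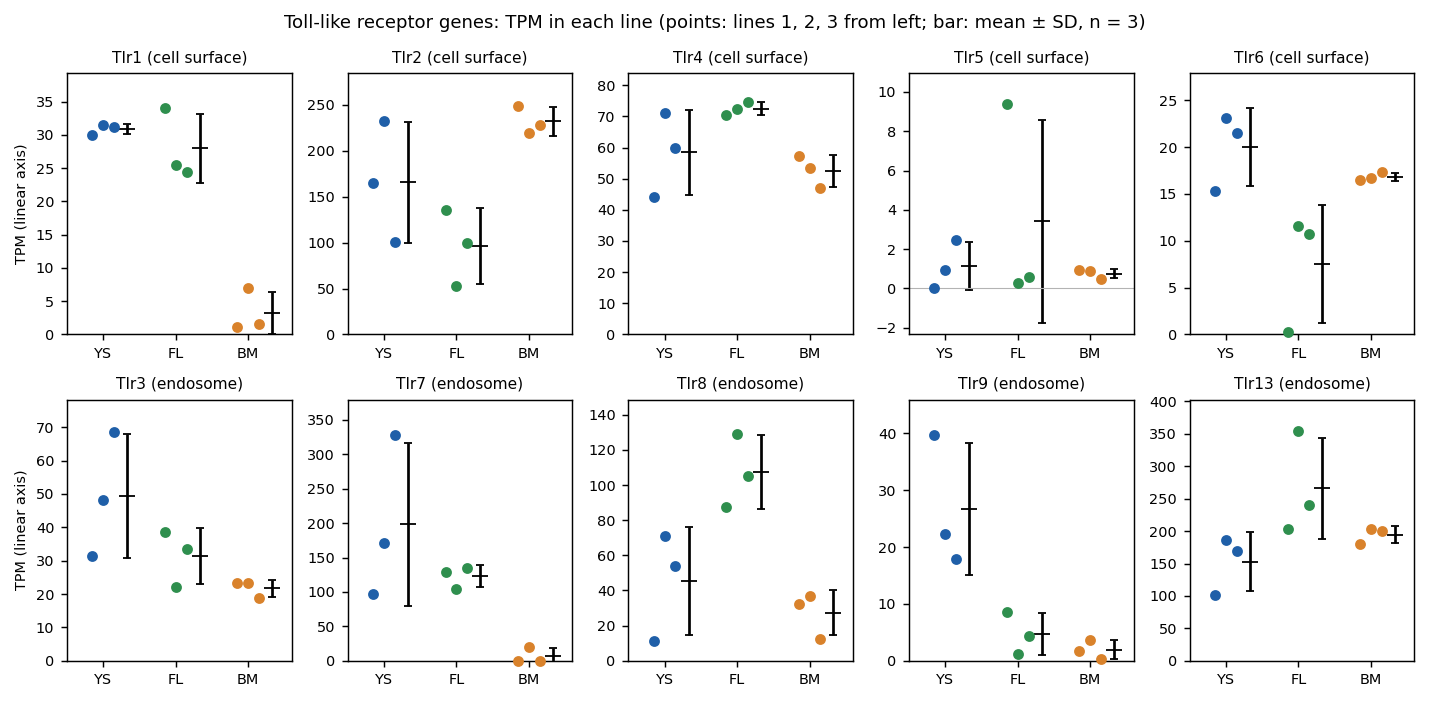
TPM of each TLR gene in every line (linear axes from 0, except for Tlr5 where an error bar reaches below 0). Points are lines 1, 2 and 3 of each origin from left to right, and the bar beside them is the mean ± SD (n = 3), not drawn below 0 for Tlr1 and Tlr7. Tlr1 and Tlr7 lie lowest in the BM lines, with BM line 2 above the other BM lines, and Tlr9 lies highest in the YS lines.

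The upstream sequences of 3 of these genes are shown because the genes had different patterns: Tlr1 was low in BM lines, Tlr9 was high in YS lines and Tlr8 was highest in FL lines. They are from RefSeq (GRCm38.p6), read 5′ to 3′ on the gene's strand and ending just before the outermost annotated base of the gene, and capitals mark GAGGAA on either strand, the core that PU.1 binds. The Tlr1 stretch of 208 bases lies at chr5:64933601-64933808 (minus strand) and holds no match as printed, the Tlr9 stretch of 250 bases at chr9:106222348-106222597 (plus strand) holds 1, and the Tlr8 stretch of 250 bases at chrX:167264330-167264579 (minus strand) holds 1. The Tlr1 stretch is shorter because the gene's annotation reaches into the window, and the bases left out hold the 1 match of the whole window.
Tlr1: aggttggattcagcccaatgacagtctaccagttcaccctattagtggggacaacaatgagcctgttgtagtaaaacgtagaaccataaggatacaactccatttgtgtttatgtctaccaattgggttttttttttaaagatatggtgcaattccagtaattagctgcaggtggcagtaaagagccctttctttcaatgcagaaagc
Tlr9: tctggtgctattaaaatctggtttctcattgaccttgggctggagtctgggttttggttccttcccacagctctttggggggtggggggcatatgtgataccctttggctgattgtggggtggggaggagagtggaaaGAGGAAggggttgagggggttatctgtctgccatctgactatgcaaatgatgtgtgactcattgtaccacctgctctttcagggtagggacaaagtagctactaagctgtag
Tlr8: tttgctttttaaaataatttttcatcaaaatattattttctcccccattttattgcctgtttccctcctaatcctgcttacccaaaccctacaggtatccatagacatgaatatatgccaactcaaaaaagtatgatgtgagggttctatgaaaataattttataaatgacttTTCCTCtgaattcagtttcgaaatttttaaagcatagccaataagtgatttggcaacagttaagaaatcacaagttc

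Promoter windows of 300 bases were found for 8 of the 10 genes, all except Tlr4 and Tlr7. These 8 genes had 10 windows, with more than 1 for 2 of them. The counts that follow are of genes and the percentages are of single windows, so the measures are not alike. GAGGAA occurred in at least 1 window of 4 of these 8 genes and in 28.3% of all 32851 windows. The interferon response motif GAAANNGAA was in windows of 2 of the genes (8.56% of all windows), the NF-κB core GGGANTTCC in 1 (1.68%) and the AP-1 motif TGANTCA in 1 (7.81%), searched on both strands. These are matches of letters only.

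Among the surface receptors, Tlr1 separated both embryonic origins from bone marrow. Its levels were 30.04, 31.49 and 31.18 TPM among YS lines, 34.01, 25.44 and 24.48 TPM in FL lines and 1.11, 6.92 and 1.62 TPM in BM lines. Every YS and FL line lay above every BM line, and the YS lines differed from each other by less than the lines of either other origin. Tlr1 was 9.05-fold higher in YS than in BM lines (log2 fold change 3.18 ± 0.43 SE, limma adjusted p = 0.0025) and 8.14-fold higher in FL than in BM lines (3.02 ± 0.43, adjusted p = 0.0025). YS and FL lines differed by 0.15 ± 0.43 on the log2 scale (adjusted p = 0.84). BM line 2 held the highest BM level; without it the log2 fold changes were 3.76 and 3.61.

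Tlr6, the other partner of TLR2, did not follow Tlr1. It stood at 15.28, 23.14 and 21.54 TPM among YS lines, 0.21, 11.59 and 10.75 TPM in FL lines and 16.48, 16.65 and 17.30 TPM in BM lines. The FL lines were the lowest and did not overlap with either other origin, and FL line 1 was far below the other FL lines. None of the comparisons passed the test: the log2 fold changes were -1.66 ± 0.77 for FL against BM lines (adjusted p = 0.17), 1.88 ± 0.77 for YS against FL lines (0.17) and 0.22 ± 0.77 for YS against BM lines (0.85). Without FL line 1 the values of the first pair were -0.55 (adjusted p = 0.097) and 0.77 (0.064), both under 2-fold. FL line 1 also entered the SE of YS against BM lines, whose value without it was again 0.22 (adjusted p = 0.36).

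Tlr1 and Tlr6 are neighbours on chromosome 5, between Klf3 and Fam114a1, and of the pairs of mouse Tlr genes they were the only pair to share any 75-base word in their GENCODE M21 transcripts. The 340 shared words were 10.3% of those of Tlr1 and 9.25% of those of Tlr6, so reads from these stretches could be split between the genes by the counting. The ratio of Tlr1 to Tlr6 was 1.97, 1.36 and 1.45 in YS lines, 162, 2.19 and 2.28 in FL lines and 0.0674, 0.416 and 0.0936 in BM lines. All YS and FL lines had more Tlr1 than Tlr6, and all BM lines had less. Klf3, on the Tlr1 side, ranged from 22.55 to 32.72 TPM in YS and FL lines and from 11.05 to 14.05 TPM in BM lines, without overlap and in the direction of Tlr1. Fam114a1, on the Tlr6 side, ranged from 5.16 to 6.44 TPM in BM lines and from 2.86 to 10.77 TPM in the others.

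Tlr2, the shared partner in lipopeptide binding, was the member with the highest mean in BM lines. It was at 164.59, 232.30 and 100.19 TPM among YS lines, 135.61, 53.18 and 99.60 TPM in FL lines and 248.79, 218.82 and 228.25 TPM in BM lines. All FL lines lay below all BM lines, while YS line 2 reached the BM range. Tlr2 was 2.57-fold lower in FL than in BM lines (log2 fold change -1.36 ± 0.37, limma adjusted p = 0.033). The call was lost without FL line 2 (-0.99, adjusted p = 0.078) and without BM line 1 (-1.31, 0.11). YS lines differed by -0.56 from BM lines (adjusted p = 0.28) and by 0.80 from FL lines (0.21), and the latter passed only without YS line 3 (1.12, 0.096).

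Tlr4, the lipopolysaccharide receptor, kept between 44.18 and 74.69 TPM in all lines. It had 44.18, 71.21 and 59.91 TPM among YS lines, 70.42, 72.30 and 74.69 TPM in FL lines and 57.15, 53.32 and 46.87 TPM in BM lines. The FL lines lay close together and above every BM line, and the YS lines ran from below the BM range into the FL range. FL lines were 1.38-fold higher than BM lines (log2 fold change 0.46 ± 0.17, limma adjusted p = 0.087), under the fold threshold; YS lines differed by 0.13 ± 0.17 from BM lines (adjusted p = 0.58) and by -0.33 ± 0.17 from FL lines (0.25). Tlr5, the flagellin receptor, was at 0.04, 0.94 and 2.48 TPM among YS lines, 9.40, 0.25 and 0.57 TPM in FL lines and 0.93, 0.87 and 0.47 TPM in BM lines. Only YS line 3 and FL line 1 exceeded 1 TPM, so no origin stood out.

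Among the endosomal receptors Tlr7, which encodes a receptor for single-stranded RNA, had the largest difference of the 9 genes tested against BM lines. Its levels were 96.37, 170.65 and 328.51 TPM among YS lines, 128.80, 104.47 and 135.20 TPM in FL lines and 0.12, 19.61 and 0.04 TPM in BM lines. BM lines 1 and 3 had almost no Tlr7 and BM line 2 had an intermediate level, below every YS and FL line. Tlr7 was 61.2-fold higher in YS than in BM lines (log2 fold change 5.94 ± 1.03, limma adjusted p = 0.0057) and 42.7-fold higher in FL than in BM lines (5.42 ± 1.03, adjusted p = 0.0082), on a log2(TPM + 1) scale that understates the change of a gene near 0. YS and FL lines differed by 0.52 ± 1.03 (adjusted p = 0.77). The size depended on the BM lines: without BM line 2 the values were 7.35 and 6.83, without BM line 1 they were 5.25 and 4.73, and without BM line 3 they were 5.20 and 4.68, with the call kept each time. In bulk cultures a smaller share of cells with Tlr7 and less Tlr7 RNA in each cell cannot be told apart.

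BM line 2 was intermediate for Tlr1 and Tlr7 alike, at 22.4% and 9.88% of the YS mean, where BM line 1 was at 3.59% and 0.0605% and BM line 3 at 5.24% and 0.0202%. Over the 9 lines log2 levels of Tlr1 and Tlr7 had a Pearson r of 0.98. The gap between BM and other lines is part of this r, and how large a part was not measured. The genes with the pattern closest to Tlr7 among all genes tested were Evl (r = 0.992), which encodes an actin regulator, and Was (0.987), the Wiskott-Aldrich syndrome gene; those closest to Tlr1 were Sept6 (0.992), a septin, and Nid2 (0.991), a basement membrane protein. In BM line 2 they stood at 15.4%, 14.0%, 20.8% and 25.8% of their YS means, a likeness that their choice fixes. Hemoglobin genes were also raised in BM line 2 (477.74 TPM summed, beside 0.3 and 0.56 TPM in BM lines 1 and 3). They were low in YS and FL lines (at most 14.5 TPM), so they shared only the excess of BM line 2 over the other BM lines. Their part in the levels of BM line 2 was not tested.

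Tlr8, the other receptor for single-stranded RNA and the neighbour of Tlr7 on chromosome X, was highest in FL lines. It was at 11.29, 70.76 and 53.74 TPM among YS lines, 87.62, 129.29 and 105.22 TPM in FL lines and 32.56, 36.63 and 12.63 TPM in BM lines. All FL lines lay above all lines of the other origins, and YS line 1 lay below the lowest BM line. Tlr8 was 4.15-fold higher in FL than in BM lines (log2 fold change 2.05 ± 0.64, limma adjusted p = 0.055). This call was lost without FL line 2 (1.91, adjusted p = 0.13), FL line 3 (2.06, 0.12), BM line 1 (2.24, 0.11) or BM line 3 (1.59, 0.18). The differences of -1.56 ± 0.64 between YS and FL lines (adjusted p = 0.17) and of 0.50 ± 0.64 between YS and BM lines (0.59) did not pass; without YS line 1 they were -0.77 (0.29) and 1.28 (0.056), the latter then called.

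The balance of the neighbours differed by origin. The ratio of Tlr7 to Tlr8 was 8.54, 2.41 and 6.11 in YS lines, 1.47, 0.808 and 1.28 in FL lines and 0.00369, 0.535 and 0.00317 in BM lines. The ratios of the origins did not overlap: Tlr7 exceeded Tlr8 in all YS lines, the FL lines were near equality, and Tlr8 exceeded Tlr7 in all BM lines. Tmsb4x, which encodes thymosin β4 and lies on the other side of Tlr8, was the gene most like Tlr8 over the 9 lines (r = 0.98), and Prps2, on the other side of Tlr7, ranged from 28.23 to 69.58 TPM with 41.40 to 51.03 TPM in BM lines.

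Tlr7, Tlr8 and Tlr13 are on chromosome X, and the lines differed in their sex-linked transcripts. Xist, the RNA of the inactive X, was at 302.67 TPM in FL line 2 and 176.17 TPM in FL line 3 and at most 0.08 TPM elsewhere. The Y-linked genes Ddx3y, Eif2s3y, Kdm5d and Uty were at 47.70, 66.37, 13.75 and 15.13 TPM in FL line 1; outside it only Ddx3y was above 0, at 0.03 TPM in FL line 2. YS and BM lines had neither. Within the FL lines, FL line 1 had 128.80 TPM of Tlr7 between the 104.47 and 135.20 TPM of the lines with Xist, and the lowest values of Tlr8 and Tlr13.

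Tlr9, the receptor for CpG DNA, was the only gene of the family called between the embryonic origins. It stood at 39.79, 22.33 and 17.83 TPM among YS lines, 8.60, 1.18 and 4.36 TPM in FL lines and 1.66, 3.73 and 0.39 TPM in BM lines. No FL or BM line reached the lowest YS line, and the FL and BM lines overlapped. Tlr9 was 10.1-fold higher in YS than in BM lines (log2 fold change 3.33 ± 0.61, limma adjusted p = 0.0067) and 5.43-fold higher in YS than in FL lines (2.44 ± 0.61, adjusted p = 0.058). FL and BM lines differed by 0.89 ± 0.61 (adjusted p = 0.34). The call against FL lines was lost without YS line 1 (2.12, adjusted p = 0.11), FL line 2 (1.87, 0.15), FL line 3 (2.52, 0.15) or BM line 1 (2.44, 0.10) and in a fit of the 6 YS and FL lines alone (2.44, 0.16), whereas the call against BM lines was kept whichever line was left out. The genes closest to Tlr9 were Cdca2 (r = 0.98) and A230050P20Rik (0.978). The mean of the summed dendritic cell markers was also highest in YS lines, but their ranges overlapped with BM lines. Zbtb46 was at 6.03 to 7.09 TPM in the YS lines, 2.23 to 6.41 TPM in FL lines and 2.55 to 2.91 TPM in BM lines, and Itgax at 3.53 to 14.28, 0.85 to 4.68 and 4.50 to 9.71 TPM. Flt3 was at 0, Siglech, a marker of plasmacytoid dendritic cells, was at most 0.06 TPM, and the part of these markers in the Tlr9 result was not tested.

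Tlr3, the receptor for double-stranded RNA, changed less. It was at 31.52, 48.27 and 68.67 TPM among YS lines, 38.73, 22.14 and 33.45 TPM in FL lines and 23.20, 23.20 and 18.73 TPM in BM lines. All YS lines lay above all BM lines, and FL lines overlapped with both. Tlr3 was 2.13-fold higher in YS than in BM lines (log2 fold change 1.09 ± 0.29, limma adjusted p = 0.026), just over the fold threshold, and it fell under 2-fold without YS line 3 (0.82) or BM line 3 (0.99) and with quantile normalization (0.95) or median-of-ratios scaling (0.98). FL lines differed from BM lines by 0.48 ± 0.29 (adjusted p = 0.28) and YS from FL lines by 0.61 ± 0.29 (0.23). The genes closest to Tlr3 were Phf11c (r = 0.984) and Dck (0.981), the latter encoding deoxycytidine kinase.

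Tlr13, the receptor for bacterial ribosomal RNA, was abundant in all 9 lines and was not called. It was at 101.42, 186.88 and 169.91 TPM among YS lines, 203.86, 353.66 and 239.76 TPM in FL lines and 180.05, 203.87 and 199.63 TPM in BM lines. All FL lines lay above all YS lines, FL line 1 was level with the highest BM line, and YS line 1 was the lowest. The log2 fold changes were -0.80 ± 0.26 for YS against FL lines (limma adjusted p = 0.10), 0.41 ± 0.26 for FL against BM lines (0.31) and -0.39 ± 0.26 for YS against BM lines (0.28). The gene Pctp, which encodes a phosphatidylcholine transfer protein, came closest to it over the lines (r = 0.982). Of the other mouse Tlr symbols, Tlr11 was at 0.09, 0.09 and 0.11 TPM among YS lines and Tlr12 at 0.18 TPM in YS line 1, and both were listed at 0 elsewhere.

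**Figure D2:**
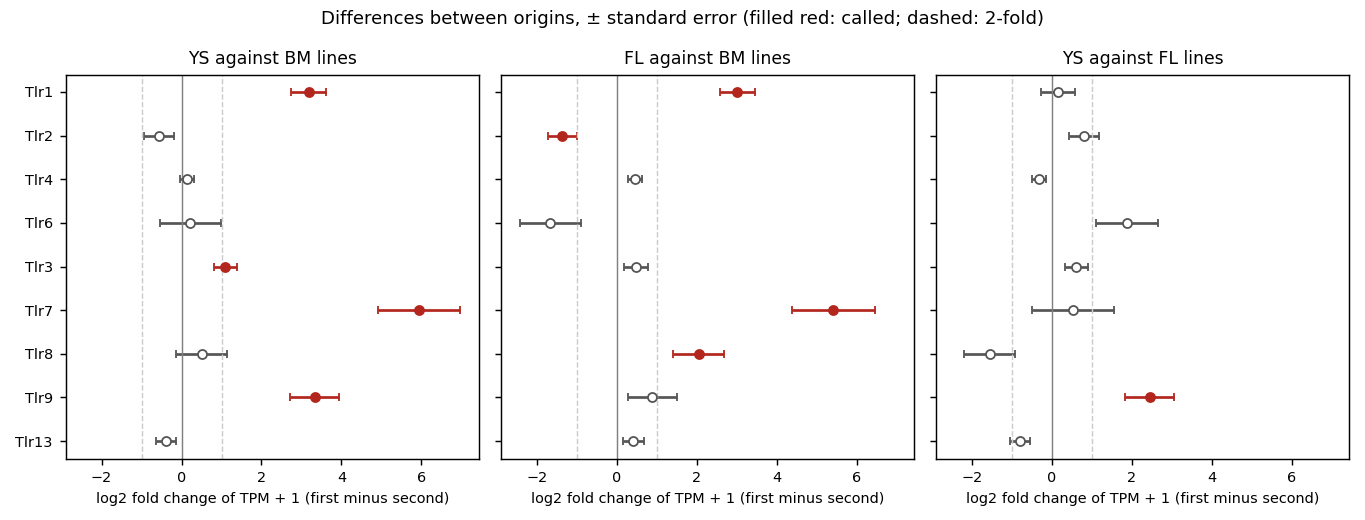
Log2 fold change of TPM + 1 (x axis) for the 9 TLR genes tested in each comparison, first origin minus second, ± standard error from limma over 9 lines. Filled red points are called and dashed lines mark 2-fold; Tlr7 lies at 5.94 and 5.42 against BM lines, and Tlr9 is the only call between YS and FL lines.

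As a repertoire, the family had a different order in each origin. In YS lines the means of Tlr7 (199 ± 119 TPM, SD, n = 3), Tlr2 (166 ± 66.1) and Tlr13 (153 ± 45.2) came first with overlapping ranges, and all 3 lay above Tlr4 (58.4 ± 13.6). The ranges of Tlr4, Tlr3, Tlr8, Tlr1, Tlr9 and Tlr6 overlapped from each gene to the next. In FL lines Tlr13 (266 ± 78.2) stood above Tlr7 (123 ± 16.2), whose range overlapped that of Tlr8 (107 ± 20.9), and Tlr8 that of Tlr2 (96.1 ± 41.3). In BM lines Tlr2 (232 ± 15.3), Tlr13 (195 ± 12.7), Tlr4 (52.4 ± 5.20) and Tlr8 (27.3 ± 12.8) followed each other without overlap, and Tlr7, Tlr1, Tlr9 and Tlr5 came last with overlapping ranges.

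The endosomal receptors made up 52.5, 58.1 and 74.8% of the summed TLR TPM among YS lines, 65.2, 79.0 and 71.1% in FL lines and 42.3, 49.2 and 44.0% in BM lines. All YS and FL lines lay above all BM lines, and YS and FL lines overlapped. The sum itself was 534.5, 858.0 and 854.0 TPM among YS lines, 717.3, 773.5 and 728.1 TPM in FL lines and 562.1, 583.6 and 525.9 TPM in BM lines, so FL lines lay above BM lines and YS line 1 lay within the BM range. Tlr7 supplied 18.0, 19.9 and 38.5% of the sum in YS lines and 0.0214, 3.36 and 0.00761% in BM lines, and Tlr2 supplied 44.3, 37.5 and 43.4% in BM lines. With 3 lines in each group an exact test of such a share cannot give a p below 0.1, and none was run.

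**Figure D3:**
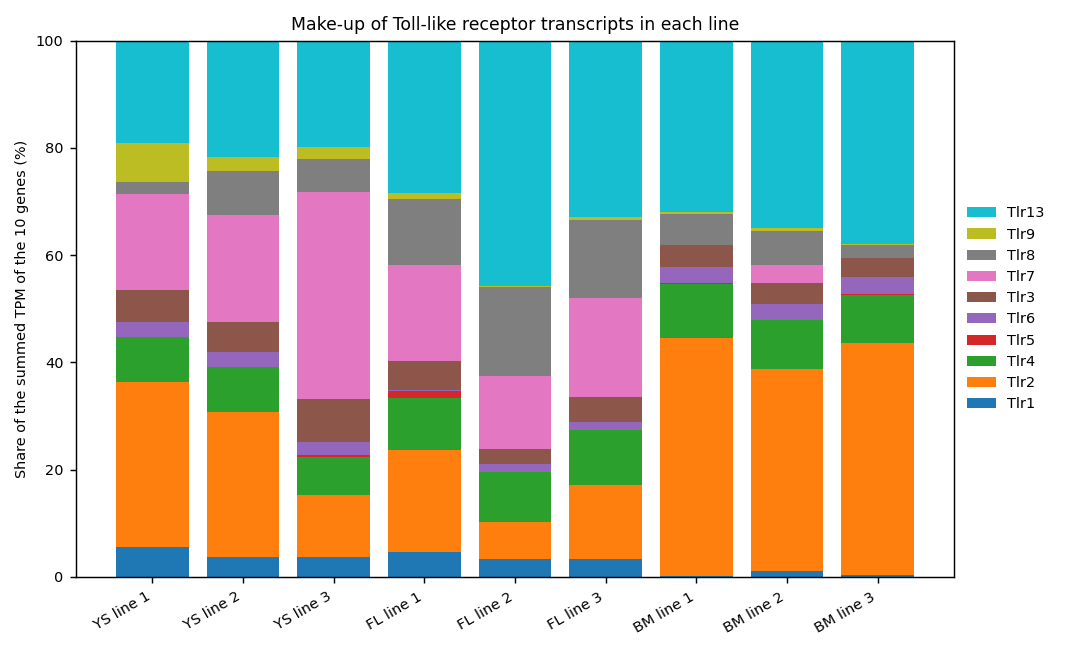
Share (%) of each TLR gene in the summed TPM of the 10 genes, one stacked bar for each line. The Tlr7 segment takes 13.5 to 38.5% in YS and FL lines and at most 3.36% in BM lines, where Tlr2 takes 37.5 to 44.3%.

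The pathway around the receptors was examined with 98 listed genes, of which 89 passed the filter and 23 were called in at least 1 comparison. YS against BM lines gave 14 calls (11 higher and 3 lower in YS lines, 15.7% of those tested), FL against BM lines also 14 (9 higher and 5 lower, 15.7%) and YS against FL lines 5 (3 higher and 2 lower, 5.62%), beside the 12.8%, 10.3% and 3.79% of all genes. The counts include Ly86 and Sigirr for YS against BM lines and Il1b for FL against BM lines. None of these genes reached 1 TPM in a BM line, so they passed the filter only through other lines. Both calls of Ptgs2, for FL against BM and YS against FL lines, are also counted, though no FL line reached 1 TPM of it. The median log2 fold changes of the 89 genes were 0.11, 0.09 and 0.09. The count for YS against BM lines fell to 9 without BM line 1 and 8 without BM line 3, and that for YS against FL lines to 3 without FL line 2, 2 without FL line 3 and 3 without BM line 1.

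Of the coreceptors, chaperones and trafficking factors, 18 of 20 were tested and 1, 2 and 0 were called in the comparisons of YS with BM, FL with BM and YS with FL lines. These calls were 5.56%, 11.1% and 0% of those tested, beside 12.8%, 10.3% and 3.79% of all genes. Unc93b1, the chaperone of the endosomal receptors, had 182.79, 157.35 and 221.95 TPM among YS lines, 122.48, 119.19 and 101.17 TPM in FL lines and 280.79, 237.52 and 265.28 TPM in BM lines. The origins did not overlap, with FL lines lowest and BM lines highest. It was 2.28-fold lower in FL than in BM lines (log2 fold change -1.19 ± 0.14, limma adjusted p = 0.0014), and YS lines differed from BM lines by -0.49 ± 0.14 (adjusted p = 0.037) and from FL lines by 0.70 ± 0.14 (0.040), both under 2-fold.

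Rnaset2a, a ribonuclease whose reads may be shared with its near copy Rnaset2b, was 2.16-fold higher in FL than in BM lines (385 ± 30.7 against 179 ± 31.7 TPM, log2 fold change 1.11 ± 0.17, limma adjusted p = 0.0036). Without BM line 1 it was just under 2-fold (0.98). Rnaset2b differed in the same direction (0.6 ± 0.32, adjusted p = 0.23) but was not called, and its FL and BM lines overlapped. Ly86, which encodes MD-1, was called higher in YS than in BM lines (1.11, adjusted p = 0.063) at levels of at most 2.55 TPM. The call was lost without any one of the 3 BM lines (1.01 to 1.20). Ly86 reached 1 TPM only in YS lines 1 and 2 and FL line 1 and passed the filter through them. Its call therefore supports nothing and stands only as a description. The partners of TLR4 were not called. Ly96 (MD-2) was at 21.07, 20.60 and 17.57 TPM among YS lines, 33.03, 36.28 and 29.88 TPM in FL lines and 29.50, 29.10 and 32.98 TPM in BM lines. YS lines lay below all others, by 0.61 (adjusted p = 0.0099) from BM lines and 0.72 (0.025) from FL lines on the log2 scale. Cd14, which hands lipopolysaccharide to TLR4, ranged from 84.91 to 294.20 TPM with overlapping origins. The TLR chaperones Hsp90b1, Cnpy3 and Cnpy4 differed by at most 0.28 on the log2 scale in any comparison.

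All 6 adaptors were tested, with 0, 1 and 0 calls (0%, 16.7% and 0%, beside 12.8%, 10.3% and 3.79% of all genes). Ticam2 (TRAM), the bridge from TLR4 to TRIF, was at 24.46, 20.45 and 15.91 TPM among YS lines, 27.29, 29.32 and 27.61 TPM in FL lines and 12.65, 16.27 and 7.29 TPM in BM lines. The FL lines lay above every other line. Ticam2 was 2.32-fold higher in FL than in BM lines (log2 fold change 1.22 ± 0.26, limma adjusted p = 0.014), and under 2-fold without BM line 3 (0.92). Myd88, the adaptor of every TLR except TLR3, was at 139.87, 112.11 and 117.20 TPM among YS lines, 121.99, 101.88 and 106.16 TPM in FL lines and 65.43, 76.80 and 61.62 TPM in BM lines. All YS and FL lines exceeded all BM lines, by 1.80-fold (0.85 ± 0.13, adjusted p = 0.0038) and 1.61-fold (0.69 ± 0.13, 0.0081), short of the 2-fold threshold. Ticam1 (TRIF) differed from BM lines by 0.43 and 0.42, Tirap by 0.67 and -0.01, Sarm1 by -0.90 and -0.78, and Pik3ap1 (BCAP) by -0.44 and -0.97 in YS and FL lines.

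The 21 kinases and ubiquitin ligases gave 1, 0 and 1 calls, both of them Ikbkg, which encodes NEMO, the regulatory subunit of the IκB kinase. Calls made up 4.76%, 0% and 4.76% of this list, beside 12.8%, 10.3% and 3.79% of all genes. Ikbkg was at 11.88, 23.52 and 16.71 TPM among YS lines, 25.92, 56.79 and 43.78 TPM in FL lines and 45.46, 42.36 and 44.08 TPM in BM lines. Every YS line lay below every other line. The log2 fold change was -1.34 ± 0.30 against BM lines (limma adjusted p = 0.014) and -1.21 ± 0.30 against FL lines (0.057). The call against FL lines was lost without YS line 1 (-0.98), FL line 2 (-0.97), FL line 3 (-1.15), BM line 1 or BM line 3 (-1.21 each).

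The 20 negative regulators gave 5, 2 and 2 calls (25%, 10% and 10%, beside 12.8%, 10.3% and 3.79% of all genes). Nrros, a regulator of TLR and oxidant responses, was at 268.32, 212.63 and 166.62 TPM among YS lines, 222.68, 261.47 and 218.47 TPM in FL lines and 50.57, 77.45 and 59.36 TPM in BM lines. It was 3.41-fold higher in YS and 3.75-fold higher in FL than in BM lines (log2 fold changes 1.77 and 1.91, limma adjusted p = 0.0015 and 0.00091), with no overlap between either origin and BM lines. Il1rl1 (ST2) was higher in YS than in BM lines (22.0 ± 12.4 against 2.11 ± 2.08 TPM, 2.96, adjusted p = 0.0062) and than in FL lines (3.70 ± 1.91 TPM, 2.23, 0.052), the latter not without FL line 2 (2.05) or FL line 3 (2.10). Sigirr was at 20, 4.00 and 1.44 TPM among YS lines and under 1 TPM in all others; it passed the filter only through the YS lines, where it is high, so its call against BM lines (log2 fold change 2.27) supports nothing and stands only as a description.

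Tnfaip3 (A20), an inhibitor of NF-κB signalling, was lower in YS than in BM lines (11.1 ± 5.10 against 30.3 ± 5.26 TPM, log2 fold change -1.44, limma adjusted p = 0.022). Tnip3 was at 61.47, 56.51 and 52.72 TPM among YS lines, 25.19, 5.86 and 16.67 TPM in FL lines and 67.35, 70.51 and 69.33 TPM in BM lines, with no overlap between any origins. It was 4.77-fold lower in FL than in BM lines (-2.25, adjusted p = 0.0061) and 3.93-fold higher in YS than in FL lines (1.98, 0.038). Socs1, an inhibitor of cytokine signalling, was called in YS against BM lines (1.40, adjusted p = 0.081), and that call was lost in 11 of 19 alternatives, including those without any one YS line, FL line 3, BM line 1 or BM line 3 (1.15 to 1.53).

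Of the 12 transcription factors, 3, 4 and 0 were called (25%, 33.3% and 0%, beside 12.8%, 10.3% and 3.79% of all genes). Irf8, a factor of macrophage and dendritic cell development, was at 112.48, 61.75 and 53.35 TPM among YS lines, 58.65, 51.28 and 50.17 TPM in FL lines and 20.78, 28.47 and 23.66 TPM in BM lines. It was 2.90-fold higher in YS and 2.16-fold higher in FL than in BM lines (log2 fold changes 1.54 and 1.11, limma adjusted p = 0.0048 and 0.018), again with no overlap. Irf7, which acts after TLR7 and TLR9, was 4.34-fold higher in YS than in BM lines (2.12, adjusted p = 0.042), but not without BM line 1 (2.21, 0.10) or BM line 3 (1.39, 0.11).

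The AP-1 subunits Fos and Jun were called in opposite directions against BM lines. Of the NF-κB subunits only Nfkb2 was called, lower in FL than in BM lines. Fos was at 33.94, 80.92 and 56.91 TPM among YS lines, 26.03, 41.33 and 46.90 TPM in FL lines and 198.05, 151.91 and 145.31 TPM in BM lines, so BM lines were highest. It was lower by 1.58 in YS lines and 2.11 in FL lines on the log2 scale (limma adjusted p = 0.0098 and 0.0032). Jun was 2.06-fold higher in FL than in BM lines (1.05, adjusted p = 0.0015), and under 2-fold without FL line 3 (0.97) or BM line 3 (0.98) and under both other scalings (lowest 0.95). Nfkb2 was 2.40-fold lower in FL than in BM lines (28.2 ± 3.68 against 68.8 ± 2.92 TPM, -1.27, adjusted p = 0.0011).

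**Figure D4:**
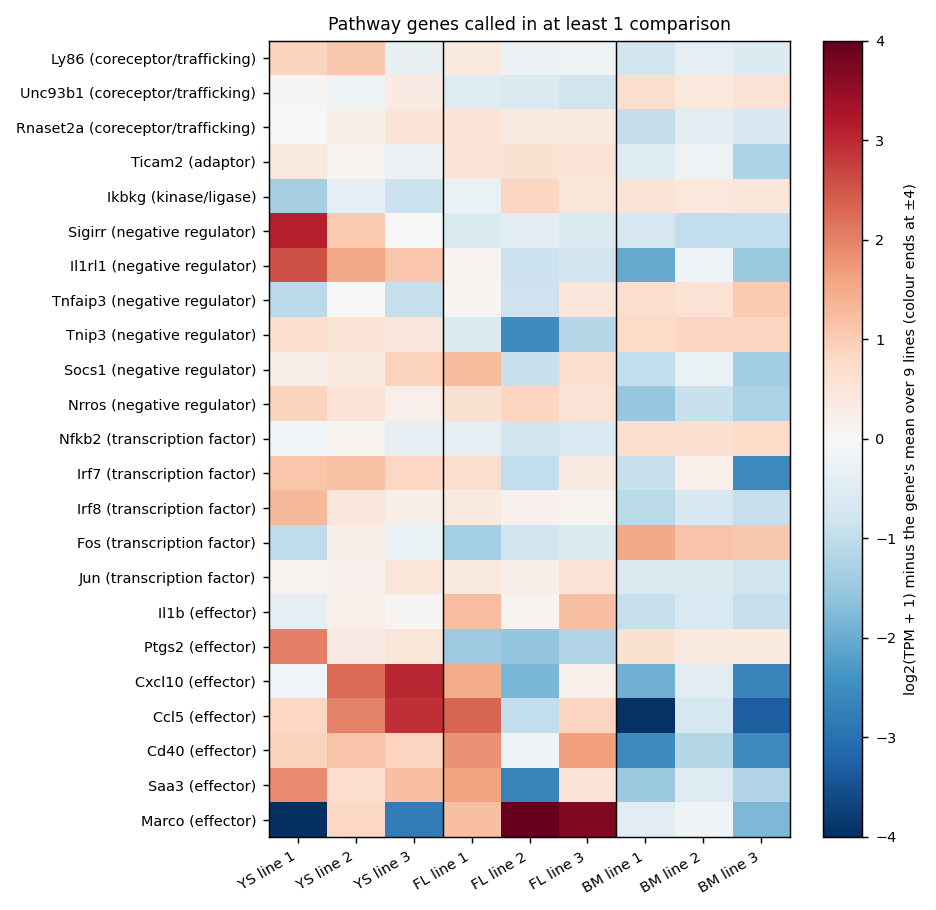
Levels of the 23 pathway genes called in at least 1 comparison, as log2(TPM + 1) minus the gene's mean over the 9 lines (colour, ends at ±4), by line (columns) and gene with its list (rows). Fos, Nfkb2 and Tnip3 are highest in the BM lines, and Nrros, Irf8 and Cd40 are lowest there.

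Of the 19 effector genes that TLR signals induce, 18 were in the table, 12 were tested, and 4, 5 and 2 were called. The calls were 33.3%, 41.7% and 16.7% of those tested, beside 12.8%, 10.3% and 3.79% of all genes. Cd40, a costimulatory receptor, was at 14.04, 16.76 and 13.50 TPM among YS lines, 27.68, 6.26 and 24 TPM in FL lines and 0.37, 2.66 and 0.37 TPM in BM lines. BM lines were lowest, and BM line 2 was the highest of them. It was 8.26-fold and 9.12-fold higher in YS and FL than in BM lines (log2 fold changes 3.05 and 3.19, limma adjusted p = 0.0067 and 0.0055); without FL line 2 the latter was 3.82. Ccl5, a chemokine, was at 60.97, 137.89 and 263.21 TPM among YS lines, 174.49, 16.63 and 62.19 TPM in FL lines and 1.27, 20.27 and 2.54 TPM in BM lines. Its difference between YS and BM lines was 4.57 (adjusted p = 0.014; 5.54 without BM line 2 and 3.92 without BM line 1). The call of FL against BM lines (3.39, adjusted p = 0.05) was lost without FL line 1 (2.59), FL line 3 (3.33), BM line 1 (2.74) or BM line 3 (3.06), and the value was 4.25 without FL line 2 and 4.36 without BM line 2.

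Cxcl10, an interferon-inducible chemokine, was at 66.68, 351.19 and 589.07 TPM among YS lines and 18.47, 53.52 and 10.91 TPM in BM lines. The difference of 3.37 on the log2 scale (limma adjusted p = 0.04) was lost without BM line 1 (3.24, 0.12) or BM line 3 (2.89, 0.13), and was 4.29 without YS line 1, 2.73 without YS line 3 and 3.99 without BM line 2. Marco, a scavenger receptor, was at 0.29, 61.80 and 4.14 TPM among YS lines, 80.63, 678.32 and 464.26 TPM in FL lines and 25.14, 30.45 and 9.21 TPM in BM lines. FL lines were highest, with a log2 fold change of 3.86 against BM lines (limma adjusted p = 0.076), and YS against FL lines gave -5.31 (0.059). The call against BM lines was lost without FL line 2 (3.26), FL line 3 (3.53) or any one BM line (3.37 to 4.18), and that against YS lines without YS line 1, FL line 2, FL line 3 or BM line 1 (log2 fold changes of YS against FL lines from -5.31 to -4.04).

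Several effectors stayed near the lower limit in these unstimulated cultures: Il12a and Cxcl1 were listed at 0 in all lines, and Nos2, the inducible nitric oxide synthase, reached at most 0.83 TPM. Tnf was not near it, at 50.74 to 137.22 TPM with overlapping origins and no call. Ccl5, Cxcl10 and Marco, given above, reached higher levels than Tnf in some lines. Il1b reached at most 3.42 TPM and was called higher in FL than in BM lines (log2 fold change 1.66, limma adjusted p = 0.012). It passed the filter through the FL lines, where it is high, so this call supports nothing and stands only as a description. The value was 4.02 with a pseudocount of 0.1 and 0.67, no longer called, with 4. Ptgs2, the inducible cyclooxygenase, was at 11.06, 2.68 and 3.13 TPM among YS lines, 0.08, 0 and 0.29 TPM in FL lines and 3.52, 2.91 and 2.86 TPM in BM lines. FL lines were lowest, by 1.87 from BM lines (adjusted p = 0.016) and 2.35 from YS lines (0.026) on the log2 scale. These sizes depended on the pseudocount: with 0.1 the values were -4.06 for FL against BM lines and 4.60 for YS against FL lines, and with 4 they were -0.78, no longer called, and 1.12. No FL line reached 1 TPM of Ptgs2, so it passed the filter only through the YS and BM lines, where it is high. Both Ptgs2 calls therefore support nothing and stand only as a description. Saa3, an acute-phase protein, was called in YS against BM lines (2.33, adjusted p = 0.096), and that call was lost in 13 of 19 alternatives, among them those without any one YS line, any one BM line or FL line 3 (2.01 to 2.61).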

How the data were processed

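RNA-seq libraries were made from polyadenylated RNA with a directional kit. The deposited table holds TPM per gene symbol, which the authors computed before deposit; the submitters' processing notes name Trim Galore 0.6.6, STAR 2.7.9a and RSEM 1.3.3, and the genome build and annotation are not given in the sources used here. Only normalized values were used, so the count-based test of the study could not be repeated, and read depth is unknown. Lines were grouped by the labelled origin, 3 in each group.

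TPM were taken as deposited, log2-transformed with a pseudocount of 1, and genes that reached 1 TPM in 3 or more of the 9 lines were tested with limma 3.58.1 (R 4.3.3), with 1 mean for each origin, an intensity trend and all 9 lines in the fit. Two-sided p-values were adjusted by Benjamini-Hochberg over all genes tested, and calls used the study's thresholds (FDR 0.1, 2-fold). The procedure was tested on simulated data. The alternatives were other pseudocounts, filters, scalings and thresholds, a fit without the trend or with only the groups compared, a replicate block, and leaving out each line. Same-numbered lines of different origins had deviations that correlated between -0.12 and 0.09, with 0 of 9 pairs over 0.1, so the numbers were not taken to pair the lines.

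The TLR genes, the pathway lists and the markers were chosen with earlier results of these data known. Named genes were all TLR genes, every pathway gene called, the adaptors, Cd14, Ly96, Unc93b1 and chaperones, the sex-linked genes, and the genes nearest each TLR gene by Pearson r, up to 2 for each. Hemoglobin genes, the other markers given, chromosomal neighbours, Rnaset2b and the effectors Tnf, Nos2, Il12a and Cxcl1 were added after their values were seen. Acod1 was not matched by that symbol. Promoter sequences, for 8 of the TLR genes, are RefSeq's (GRCm38.p6), and shared words of 75 bases were counted in GENCODE M21 transcripts.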

Additional observations from a re-analysis of the deposited data

How the results depend on the processing

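Depth is unknown, and with 3 lines in each group 1 line could decide a call. Of 513 values of the TLR genes under the alternatives, 492 kept their direction and side of the threshold, 17 lost a call, 2 gained one and 2 reversed, both for Tlr4 in YS against BM lines (-0.01 with quantile normalization, and -0.02 to 0.32 over the fits that left out a line). Most of these values are of comparisons without a call. Against BM lines, the lost calls were Tlr2 and Tlr8 in FL lines and Tlr3 in YS lines (2, 5 and 4 of 19 alternatives). The call of Tlr9 in YS against FL lines was lost in 6 of 19. The calls of Tlr1, Tlr7 and Tlr9 against BM lines were kept in all. TLR calls ranged from 3 to 5 for YS against BM lines, from 2 to 4 for FL against BM lines and from 0 to 2 for YS against FL lines when a line was left out; the last were 0 with only the 6 lines compared and 0 at FDR 0.05. Pathway calls ranged from 8 to 15, from 10 to 17 and from 2 to 5 when a line was left out. Without a fold threshold they were 37, 33 and 12, where 37.9%, 27.6% and 12.8% of all genes were called. For YS against FL lines they were 0 with only the 6 lines compared, where 81 of all genes were called instead of 446, and 2 at FDR 0.05, where 234 were. Of 33 pathway calls, 15 were kept under every alternative run. Pseudocounts of 0.1 and 4 set the Tlr7 log2 fold change to 7.70 and 4.62 against BM lines for YS, and to 7.17 and 4.11 for FL. Quantile normalization moved the median of all genes from 0.11 to -0.01 in YS against BM lines, and the higher and lower calls from 890 and 614 to 724 and 763 (706 and 505 to 592 and 593 for FL against BM lines). With the line number as a replicate block the TLR calls were 4, 4 and 1 and the pathway calls 13, 14 and 5, and no TLR call changed. The cause of these changes was not tested.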
